A study of Mus musculus with 7 samples.

Results

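Plasmacytoid dendritic cell genes were described in whole thymus RNA of RelB-/- mice and RelB+/- mice. The set held 9 genes chosen by name, Siglech, Pacsin1, Bst2, Pld4, Tcf4, Runx2, Ly6d, Lair1 and Klk1. All probes carrying one of these symbols in the platform annotation were taken, which gave 13 probes of 8 genes among 25695 probes and 16593 gene symbols. Runx2 had no probe under its symbol and was not analysed here. Of the 13 probes, 10 probes of 7 genes were detected on enough arrays to be tested, and 3 were not, among them the only probe of Lair1.

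Thymi of 3 RelB-/- mice and 4 RelB+/- mice, all aged 8 weeks, were profiled on Illumina expression arrays, 1 array per mouse. The RelB+/- mice served as controls and were called wild type in the sample titles, although by genotype they carry 1 disrupted Relb allele. The sources used here do not give strain, sex or how the allele was made. The tissue was the whole organ, so fewer cells of a type and less RNA per cell cannot be told apart in any value below.

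Plasmacytoid dendritic cells are a rare lineage that senses viral nucleic acids through endosomal Toll-like receptors and answers with large amounts of type I interferon. Their identity is set by the E protein encoded by Tcf4, and in mice they are recognised by the surface lectin Siglec-H. The thymus holds a resident and immigrating population of them beside conventional dendritic cells, which present antigen to developing T cells in the medulla. RelB, a subunit of NF-kB, is known in mice for its part in medullary epithelium and in subsets of conventional dendritic cells.

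The upstream sequences of 2 members are shown because Siglech is the member that best defines the lineage in mice and Bst2 is the member that interferon induces. Of the 9 genes, 7 had a window in the RefSeq promoter table for GRCm38.p6 (Siglech, Pacsin1, Bst2, Pld4, Runx2, Lair1 and Klk1). Each sequence below is the 250 bases before the annotated start, read 5′ to 3′ on the strand of the gene. Capitals mark 3 motifs searched on both strands, namely the E-box CANNTG bound by E proteins, the core of the interferon response element (a pair of GAAA repeats with any 2 bases between them), and the kappa B motif. The core and the kappa B motif lie next to each other in Bst2, so their capitals are close.
Siglech, plus strand of chr7:55767934-55768183: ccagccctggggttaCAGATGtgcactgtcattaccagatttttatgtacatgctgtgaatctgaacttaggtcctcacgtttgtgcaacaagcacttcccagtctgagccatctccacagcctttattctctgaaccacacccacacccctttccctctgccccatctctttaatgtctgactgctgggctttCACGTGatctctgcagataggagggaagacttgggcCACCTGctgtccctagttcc
Bst2, minus strand of chr8:71537473-71537722: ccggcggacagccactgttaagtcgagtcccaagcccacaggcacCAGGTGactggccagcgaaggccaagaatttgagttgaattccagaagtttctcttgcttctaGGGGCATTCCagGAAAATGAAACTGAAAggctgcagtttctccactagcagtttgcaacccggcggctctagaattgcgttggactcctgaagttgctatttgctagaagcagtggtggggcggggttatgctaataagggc
Counted from the start, the Siglech window held 3 E-boxes, at -235, -56 and -20. The Bst2 window held 1 E-box at -205 and 2 overlapping matches to the interferon response core at -130 and -124. A match to the kappa B motif lay at -142 in Bst2, and it was the only such match among the 7 windows. Among all 32851 windows of this length, 66.2% held an E-box, 2.98% held the interferon response core and 7.25% held the kappa B motif. These matches describe letters in the windows and show no binding.

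The arrays differed modestly in brightness, with median raw intensities of 105.2 to 142.3 in RelB-/- thymus and 103.5 to 136.1 in RelB+/- thymus. Detected probes made up 45.9% to 47.8% of the RelB-/- arrays and 46.7% to 49.4% of the RelB+/- arrays. The probe of Relb itself (ILMN_1246841) passed the detection threshold on 0 of 3 arrays in the RelB-/- group and 4 of 4 in the RelB+/- group, with raw intensities of 102.5, 118.2 and 120.5 in RelB-/- thymus against 223.1, 179.8, 253.4 and 307.8 in RelB+/- thymus. Whether that probe lies in the disrupted part of the gene is unknown. RelB-/- 3 and RelB+/- 2 stood apart by heart muscle transcripts, since the summed raw intensity of Myl4 and Nppa was 18095 and 4135 on these 2 arrays and 347.7 to 427.4 on the other five. The members, the list medians and the called list genes are also given without both arrays. In all lists below, a measured gene is one with a probe detected on enough arrays to be tested. An unmeasured list gene can thus be one whose probes were not detected. Of 11 listed thymocyte markers 9 were measured, with 0 called by limma, 1 at an unadjusted p under 0.05 and a median log2 difference of 0.16.

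For no measured member did the difference between the genotypes pass the test. Of the 10 tested probes, 0 passed an adjusted p under 0.05 in limma's moderated test, and 0 had an unadjusted p under 0.05. Over all 12465 tested probes, 0.554% were called (0.489% lower and 0.0642% higher in RelB-/- thymus) and 11.9% had an unadjusted p under 0.05. The groups overlapped for each of the 10 probes, and 12.7% of all probes had groups that did not overlap. With a background of 0.554%, a count of 0 among 10 is near what the whole table shows and says nothing particular about the set. The counts of 0 beside 11.9% and 12.7% say nothing particular either, as the 10 probes come from only 7 genes. The log2 differences ran from -0.14 to 0.34, 8 positive and 2 negative, with adjusted p from 0.614 to 0.985. Their median was 0.047, against 0.015 over all probes, and the median absolute difference was 0.078, against 0.198 over all probes. In this main fit the 95% interval of each difference lay inside a 2-fold change in either direction. The widest limits were -0.84 and 0.94 on the log2 scale. Background and the offset shrink the differences of dim probes, so for probes near the detection threshold these limits are too narrow for the RNA itself. Without both arrays with heart muscle transcripts, an alternative chosen after seeing the data, 0 of 10 probes were called and the log2 differences ran from -0.31 to 0.55 (adjusted p 0.480 to 0.921 in limma). Pacsin1 (ILMN_2644415) was then 0.55 (SE 0.31) and Siglech (ILMN_2928599) 0.29 (SE 0.40). The 95% intervals from these SEs pass a 2-fold change upward, so the 2-fold limit does not hold there.

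**Figure D1:**
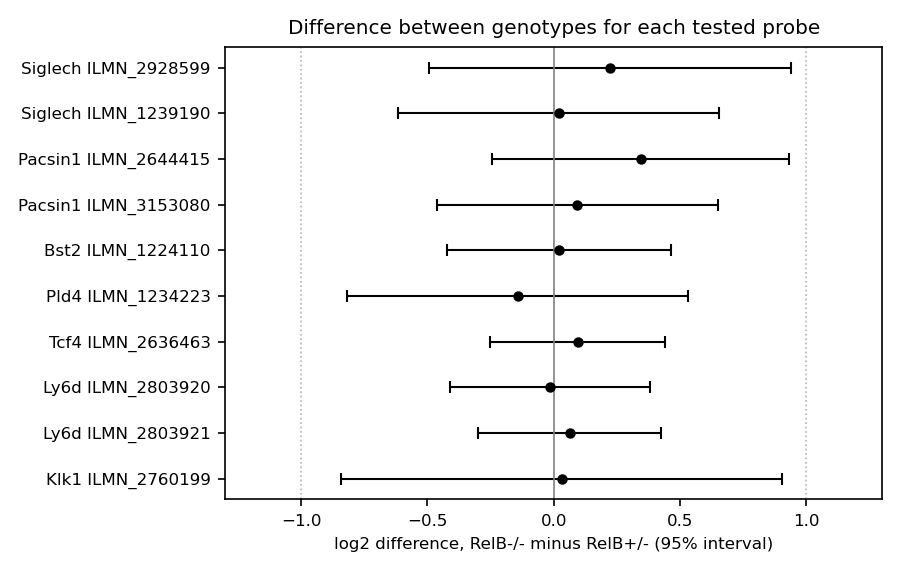
Log2 differences, RelB-/- minus RelB+/-, of the 10 tested probes of plasmacytoid dendritic cell genes, with 95% intervals from the limma fit (3 RelB-/- and 4 RelB+/- arrays). Dotted lines mark a 2-fold change, and each interval crosses 0 and stays between them.

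Siglech encodes a sialic acid-binding lectin that signals through an adaptor and is the marker most used for mouse plasmacytoid cells. Its brightest probe (ILMN_2928599) was detected on all 7 arrays. It read 7.46, 6.05 and 6.34 on the normalized log2 scale on RelB-/- arrays 1 to 3, against 6.58, 6.19, 6.54 and 6.28 on RelB+/- arrays 1 to 4. RelB-/- 1 lay above every RelB+/- array and RelB-/- 2 lay below every one, so the RelB-/- values enclosed the RelB+/- values. The RelB-/- mean was 6.62 ± 0.75 (SD, n = 3), against a RelB+/- mean of 6.39 ± 0.19 (SD, n = 4). The log2 difference was 0.22 (SE 0.31, limma adjusted p = 0.798), with limits that run from 1.41-fold lower to 1.92-fold higher. RelB-/- 1 decided its sign, and without that array the difference was -0.20 (limma adjusted p = 0.807).

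The other Siglech probes were at or near background. ILMN_1239190 passed the threshold on 2 of 3 RelB-/- arrays, against 2 of 4 RelB+/- arrays. It read 5.54, 4.91 and 4.95 in RelB-/- thymus against 4.68, 5.58, 5.47 and 4.73 in RelB+/- thymus. Its difference was 0.019 (SE 0.28, limma adjusted p = 0.985). The values interleaved, and RelB+/- 2, the lowest RelB+/- array by the brightest probe, was the highest by this one. ILMN_2656415 passed on 0 of 3 RelB-/- arrays, against 1 of 4 RelB+/- arrays, and was left untested. Its raw intensities, 101.6, 118.5 and 131.1 in RelB-/- thymus against 108.9, 108.8, 117.3 and 116.1 in RelB+/- thymus, were 0.84 to 1.03 times the lowest detected signal of their array. The Siglech result therefore rests on 1 probe, whose raw signal was 1.25 to 2.00 times that threshold in RelB-/- thymus and 1.27 to 1.68 times in RelB+/- thymus.

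**Figure D2:**
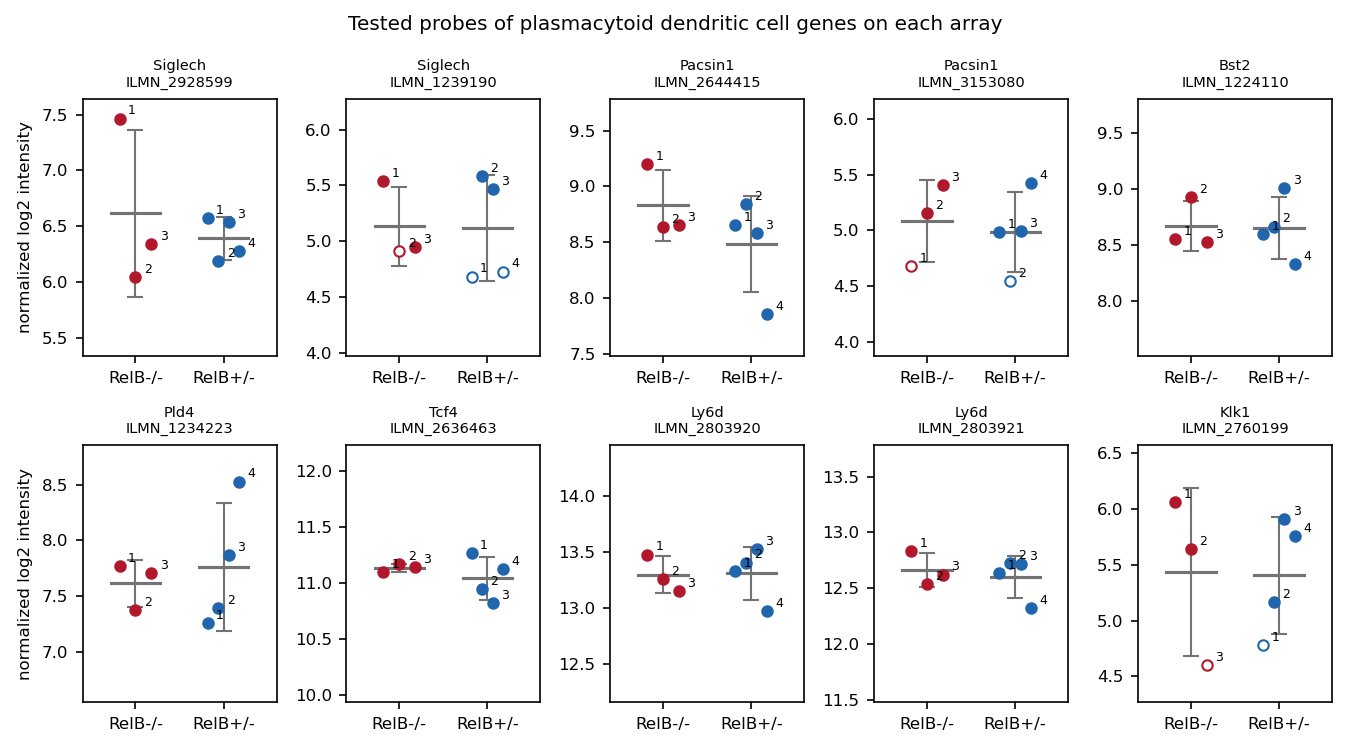
Normalized log2 intensity of the 10 tested probes on each array, RelB-/- in red and RelB+/- in blue, with the replicate number beside each point, and bars for the mean and SD of each group. Open circles are arrays where the probe was not detected, and every panel spans the same log2 range. The red and blue points overlap in each panel.

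Of the transcription factors, Tcf4 was measured and Runx2 was not. Tcf4 encodes the E protein that specifies plasmacytoid cells and is also transcribed in B cells and stroma. Its probe (ILMN_2636463) read 11.10, 11.17 and 11.14 in RelB-/- thymus against 11.27, 10.95, 10.82 and 11.13 in RelB+/- thymus. The RelB-/- values lay within the RelB+/- range and were close together. The difference was 0.095 (SE 0.15, limma adjusted p = 0.827), with limits from 1.19-fold lower to 1.36-fold higher, among the narrowest of the set. The raw signal was 17.6 to 19.0 times the detection threshold in RelB-/- thymus and 14.1 to 22.4 times in RelB+/- thymus.

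Pacsin1 and Pld4 act in the endosomal part of nucleic acid sensing. Pacsin1 is an adaptor of endocytosis and the actin cytoskeleton that is needed for full interferon production by mouse plasmacytoid cells. Its bright probe (ILMN_2644415), annotated to NM_011861, read 9.20, 8.64 and 8.66 in RelB-/- thymus against 8.65, 8.84, 8.59 and 7.86 in RelB+/- thymus. All 3 RelB-/- arrays lay above the RelB+/- mean of 8.49 ± 0.43 (SD, n = 4), and 1 of them above every RelB+/- array. The difference of 0.34 was the largest in size among the members (SE 0.26, limma adjusted p = 0.614), with limits from 1.18-fold lower to 1.91-fold higher.

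The other 2 Pacsin1 probes, annotated to another transcript of the gene, NM_178365, were dim. ILMN_3153080 passed the threshold on 2 of 3 RelB-/- arrays, against 3 of 4 RelB+/- arrays. It read 4.68, 5.15 and 5.41 in RelB-/- thymus against 4.99, 4.55, 4.99 and 5.42 in RelB+/- thymus. Its difference was 0.094 (SE 0.24, limma adjusted p = 0.906). RelB+/- 4 was the lowest array by the bright probe and the highest by this one. ILMN_3074180 passed on 1 of 3 RelB-/- arrays, against 0 of 4 RelB+/- arrays, with raw intensities of 99.9, 138.8 and 141.5 in RelB-/- thymus against 106.0, 102.8, 116.5 and 133.9 in RelB+/- thymus, and was left untested.

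Pld4 is an endolysosomal exonuclease that degrades single-stranded nucleic acids and limits Toll-like receptor signals, and it is also transcribed in B cells and macrophages. Its probe (ILMN_1234223) read 7.77, 7.38 and 7.71 in RelB-/- thymus against 7.26, 7.39, 7.87 and 8.53 in RelB+/- thymus. The RelB-/- values lay inside the RelB+/- range, whose top was RelB+/- 4. The difference was -0.14 (SE 0.30, limma adjusted p = 0.875), with limits from 1.76-fold lower to 1.45-fold higher, and it was 0.11 without RelB+/- 4. The 6 measured of 12 B cell markers averaged -0.65 to -0.27 on the RelB-/- arrays, relative to the RelB+/- mean on the log2 scale, against 0.45 on RelB+/- 4 and -0.32 to 0.068 on the other RelB+/- arrays. The 9 measured of 12 macrophage markers averaged -0.019 to 0.16 on the RelB-/- arrays, against 0.24 on RelB+/- 4 and -0.093 to -0.070 on the other RelB+/- arrays. RelB+/- 4 was thus the highest array for Pld4 and for both lists. It was also the highest for markers of plasma cells (0.20) and conventional dendritic cells (0.18) and for interferon-stimulated genes (0.11). For thymocyte markers it was the lowest (-0.12). The part of B cells and macrophages in the Pld4 value was not tested.

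Bst2 encodes tetherin, a membrane protein that holds budding virus at the cell surface and carries the antigen by which mouse plasmacytoid cells are often sorted. Interferon induces it in many cell types. Its probe (ILMN_1224110) read 8.56, 8.93 and 8.52 in RelB-/- thymus against 8.60, 8.67, 9.01 and 8.33 in RelB+/- thymus. All RelB-/- values lay within the RelB+/- range. The difference was 0.020 (SE 0.19, limma adjusted p = 0.979), with limits from 1.34-fold lower to 1.38-fold higher.

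Other interferon-stimulated genes are given beside Bst2. Of 18 listed, 11 were measured and 0 were called in either direction by limma, with 3 at an unadjusted p under 0.05 and a median log2 difference of -0.11. With 1 probe per gene, 0.606% of all 9569 genes or probes without a symbol were called lower and 0.0836% higher. Over the same 9569, 12.7% had an unadjusted p under 0.05, and the median was 0.025. Usp18, which dampens interferon receptor signalling, had a log2 difference of -0.83 (SE 0.17, limma adjusted p = 0.120). Ifit3, an antiviral effector, had one of -0.98 (SE 0.23, limma adjusted p = 0.165). Whether Bst2 differed from either gene in its response was not tested.

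Ly6d encodes a glycolipid-anchored surface protein that marks lymphoid progenitors of B cells and of part of the plasmacytoid lineage, and is also found on thymocytes and squamous epithelium. Both of its probes were far above background. ILMN_2803920 read 13.48, 13.26 and 13.16 in RelB-/- thymus against 13.33, 13.41, 13.53 and 12.97 in RelB+/- thymus. ILMN_2803921 read 12.83, 12.54 and 12.62 in RelB-/- thymus against 12.64, 12.73, 12.72 and 12.32 in RelB+/- thymus. By both probes RelB-/- 1 was the highest RelB-/- array and RelB+/- 4 the lowest of all 7. The differences were -0.014 (SE 0.17, limma adjusted p = 0.982) and 0.063 (SE 0.16, limma adjusted p = 0.903). Raw signals were 47.5 to 84.6 times the detection threshold in RelB-/- thymus and 45.1 to 107.9 times in RelB+/- thymus. At that signal, in an organ made mostly of thymocytes, the level of Ly6d cannot be assigned to plasmacytoid cells.

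Klk1 and Lair1 were at or near the detection threshold. Klk1 is a tissue kallikrein, a secreted serine protease that releases kinins, and its transcript is also found in salivary gland and kidney. Its probe (ILMN_2760199) passed the threshold on 2 of 3 RelB-/- arrays, against 3 of 4 RelB+/- arrays. It read 6.06, 5.64 and 4.61 in RelB-/- thymus against 4.78, 5.17, 5.91 and 5.76 in RelB+/- thymus. The RelB-/- values again enclosed the RelB+/- values, and the difference was 0.032 (SE 0.38, limma adjusted p = 0.982). Its SE was the largest in the set, with limits from 1.79-fold lower to 1.87-fold higher. The Klk1 family holds near-identical copies, which the probe may not tell apart.

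Lair1 encodes an inhibitory receptor for collagen carried by many leukocytes. Its probe (ILMN_2621296) passed the threshold on 0 of 3 RelB-/- arrays, against 1 of 4 RelB+/- arrays, and was left untested. Raw intensities were 87.2, 112.9 and 124.8 in RelB-/- thymus against 108.6, 108.6, 113.5 and 108.2 in RelB+/- thymus. Only RelB+/- 2 exceeded the threshold of its array, at 1.03 times its value, and Lair1 was not above the threshold elsewhere.

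**Figure D3:**
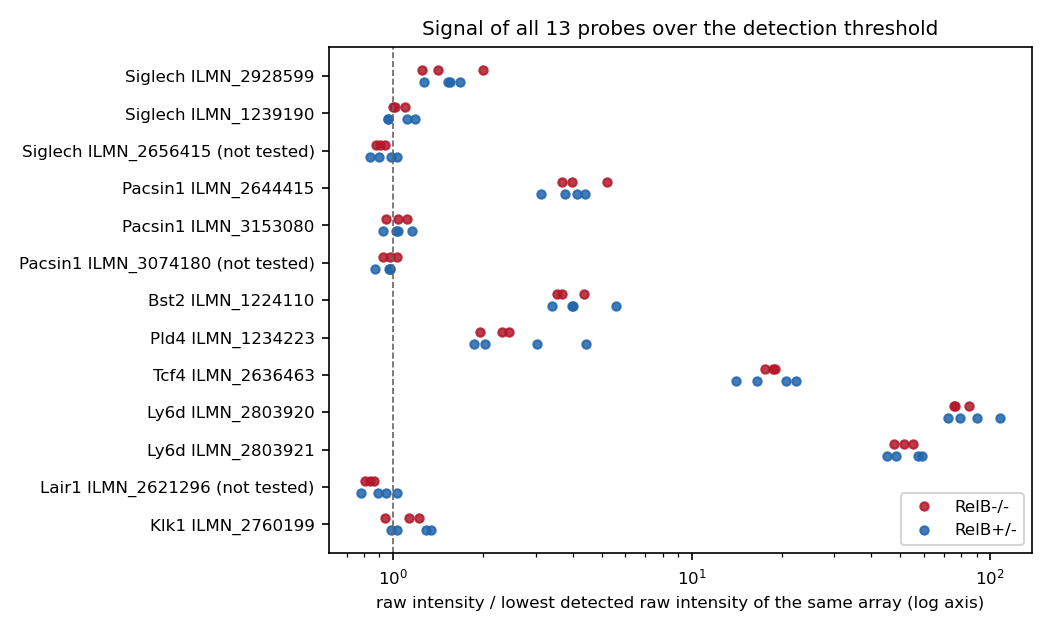
Raw intensity of all 13 probes divided by the lowest detected raw intensity of the same array, on a log axis, RelB-/- in red above RelB+/- in blue, 1 point per array. The dashed line is the detection threshold. Probes bind with different efficiency, so rows show distance from background and not relative amounts of transcript, and Lair1 lies between 0.78 and 1.03.

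The members also varied by animal. Averaged over the 7 measured genes, 1 probe each, the arrays lay 0.37, 0.0026 and -0.13 from the RelB+/- mean on RelB-/- arrays 1 to 3, against -0.082, -0.063, 0.17 and -0.028 on RelB+/- arrays 1 to 4, on the log2 scale. RelB-/- 1 was the highest array, and it was the highest of the 3 RelB-/- arrays for Siglech, Pacsin1, Pld4, Ly6d and Klk1 but not for Bst2 or Tcf4. The genes whose centred values lay nearest to those of the brightest Siglech probe over the 7 arrays were Sh2d7, Mgat1, Itgav, Pim2 and Armc8. Their root mean square distances were 0.11 to 0.16 on the log2 scale. All 5 were highest on RelB-/- 1, as the Siglech probe was, which follows from how they were chosen. Apart from Armc8 they read around the lowest detected normalized values, 4.83 to 4.98, on most arrays. This nearness over 7 arrays is a description.

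Genes that act with these members were read from lists. Of 15 genes of plasmacytoid cell development and the E protein network, 13 were measured and 0 were called by limma, with 2 at an unadjusted p under 0.05 and a median log2 difference of 0.016. Spib, a partner factor that sustains the lineage, was 5.50 ± 0.35 in RelB-/- thymus and 5.50 ± 0.32 in RelB+/- thymus (SD, n = 3 and n = 4). Irf8, an interferon regulatory factor of dendritic cell development, had a log2 difference of -0.20 (SE 0.28, limma adjusted p = 0.796). Zeb2, a repressor that takes part in plasmacytoid cell development, had the smallest p of this list, with a log2 difference of 0.77 (SE 0.23, limma adjusted p = 0.295). Cbfb, the shared partner of Runx proteins, followed at 0.46 (SE 0.17, limma adjusted p = 0.369).

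Of 15 genes of nucleic acid sensing and type I interferon, 8 were measured and 0 were called by limma, with 3 at an unadjusted p under 0.05 and a median log2 difference of 0.046. Tlr7, the endosomal receptor for single-stranded RNA, was close in both groups (0.039, SE 0.19, limma adjusted p = 0.954). Irf7, the factor that drives interferon transcription in plasmacytoid cells, had a log2 difference of -0.59 (SE 0.23, limma adjusted p = 0.375). Traf6, a ubiquitin ligase of Toll-like receptor signalling, had one of 0.62 (SE 0.22, limma adjusted p = 0.337). Neither passed the test.

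Of 12 other plasmacytoid cell markers, 7 were measured and 0 were called by limma, with 1 at an unadjusted p under 0.05 and a median of -0.095. Ptprs, a receptor phosphatase, had a log2 difference of 0.41 (SE 0.15, limma adjusted p = 0.348), and Atp1b1, a sodium pump subunit, had one of -0.25 (SE 0.20, limma adjusted p = 0.640). Cox6a2, a respiratory chain subunit of muscle that mouse plasmacytoid cells also use, is chosen here after its values were seen. It read 8.42, 7.38 and 11.28 in RelB-/- thymus against 7.74, 10.15, 8.04 and 7.01 in RelB+/- thymus, highest in each group on the array with heart muscle transcripts.

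Lists of neighbouring cell types are set beside the members with no test of the difference between lists. Conventional dendritic cell markers had 1 of 7 measured genes lower and a median of -0.16. Fscn1, which bundles actin in mature dendritic cells, averaged 6.55 ± 0.13 in RelB-/- thymus, against 8.38 ± 0.50 in RelB+/- thymus (SD, n = 3 and n = 4), a log2 difference of -1.83 (SE 0.26, limma adjusted p = 0.023). Medullary epithelial markers had 4 of 8 genes lower and a median of -1.51, B cell markers 0 of 6 called and a median of -0.39, plasma cell markers 1 of 4 lower and a median of -0.31, and macrophage markers 0 of 9 called and a median of -0.095. Granulocyte markers had 2 of 10 genes higher and a median of 2.27. The unadjusted limma p was under 0.05 for 3 of 7 conventional dendritic, 5 of 8 medullary and 3 of 6 B cell genes. It was so for 2 of 4 plasma cell, 2 of 9 macrophage and 10 of 10 granulocyte genes. Over all genes and probes without a symbol, that share was 12.7%, with 0.606% called lower and 0.0836% higher. Several of the list medians depended on single arrays or on the scale. The macrophage median was 0.073 without RelB-/- 1, 0.068 without RelB-/- 3 and -0.26 without RelB-/- 2. The medullary median was -0.74 without background correction, -1.08 with an offset of 50 and -0.46 with the authors' processed values, and it was negative under each alternative. The granulocyte median was 1.34 without background correction and 0.98 with the authors' processed values. The granulocyte list averaged 1.31, 2.34 and 3.03 on RelB-/- arrays 1 to 3, relative to the RelB+/- mean on the log2 scale, against -0.39, 1.13, -0.90 and 0.16 on RelB+/- arrays 1 to 4. In each genotype it was highest on the array with heart muscle transcripts, and the part of that tissue in the list was not tested.

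The 4 medullary genes were Ccl21a, a chemokine that draws thymocytes to the medulla (-3.16, SE 0.31, limma adjusted p = 0.0033, with near-identical gene copies that the probe may share), Krt14, a keratin (-1.68, SE 0.26, limma adjusted p = 0.034), and the transcription factors Fezf2 and Aire, which drive self-antigen expression. With RelB-/- signals raised to the lowest detected signal of their array, the RelB-/- mean was 3.87-fold lower for Fezf2 and 2.93-fold lower for Aire. These folds leave out sampling error, so they set no limit on the difference. Both genes were called (limma adjusted p 0.00076 and 0.00099). Under the alternatives the log2 difference ran from -2.55 to -0.58 for Fezf2 and from -2.20 to -0.45 for Aire. Mzb1, a chaperone of antibody-secreting cells that plasmacytoid cells also transcribe, fell by 1.29 on the log2 scale (SE 0.22, limma adjusted p = 0.0496). The granulocyte genes were the neutrophil enzymes Ctsg (1.87, limma adjusted p = 0.027) and Mpo (2.53, limma adjusted p = 0.041). Several of these calls depended on the processing or on single arrays. Mzb1 was called under 7 of 20 alternatives, Mpo under 7 of 19, Ctsg under 8 of 19, Krt14 under 11 of 20 and Fscn1 under 12 of 20. Ccl21a was called under 19 of 20, and Fezf2 and Aire each under 19 of 19. Without both arrays with heart muscle transcripts, 18 probes of the whole table were called lower and 2 higher. Of these 8 list genes only Fezf2 and Aire then passed the threshold (limma adjusted p 0.024 and 0.031). The other six had log2 differences of -3.08 for Ccl21a, -1.92 for Krt14, -1.91 for Fscn1, -1.39 for Mzb1, 1.63 for Ctsg and 2.52 for Mpo, with limma adjusted p from 0.063 to 0.207. List medians without both arrays were 0.099 for the members, 0.030 for the other plasmacytoid markers, 0.19 for development and the E protein network, 0.11 for nucleic acid sensing and 0.025 for interferon-stimulated genes. They were -0.29 for conventional dendritic cells, -1.53 for medullary epithelium, -0.41 for B cells, -0.28 for plasma cells, 0.069 for macrophages, 2.29 for granulocytes and 0.16 for thymocytes. The other plasmacytoid markers, the interferon-stimulated genes and the macrophage markers thereby had medians of the opposite sign. With all arrays, the plasmacytoid members had a median of 0.032 over 7 genes, with 0 past the threshold.

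**Figure D4:**
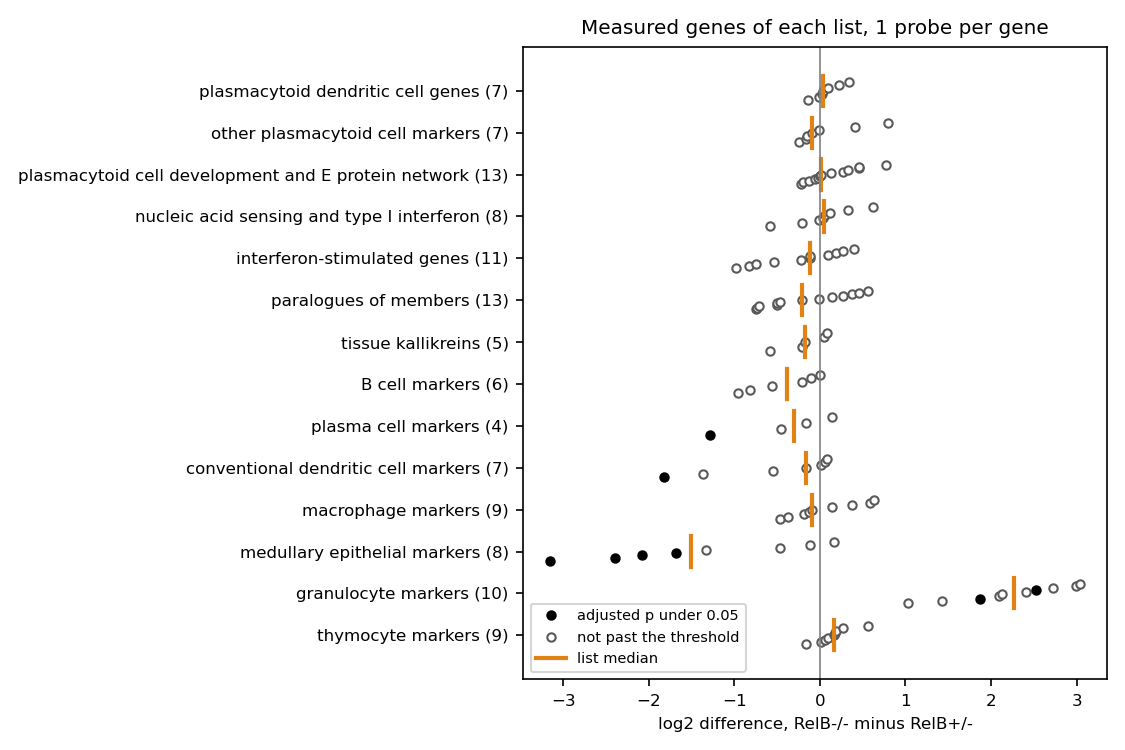
Log2 differences, RelB-/- minus RelB+/-, of the measured genes of each list, 1 probe per gene, with the number measured in brackets. The heart muscle markers are not drawn. Filled points passed an adjusted p under 0.05 in limma and orange bars are list medians, and the plasmacytoid dendritic cell genes cluster near 0 with a median of 0.032.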

How the data were processed

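Biotin-labelled cRNA was hybridised, per the labels. The authors deposited non-normalized probe intensity values on a linear scale, per the file headers. Beside each intensity they deposited its detection p-value. The submitters' processing notes name GenomeStudio without its settings. A second table that the authors deposited behaves as log2 values of unstated making and served as an alternative. All per-sample columns were usable (0 unused).

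Raw signals were background-corrected by normexp from the detection p-values (offset 16), quantile normalized and log2 transformed in limma 3.58.1 (R 4.3.3). Of 25695 probes, 12465 passed a filter that asked for detection (p under 0.05) on 3 or more arrays. Of all probes, 23976 had 1 gene symbol, 1719 had none and 0 had several. Genotypes were compared by lmFit and eBayes (2-sided, RelB-/- minus RelB+/-), with Benjamini-Hochberg adjustment over all kept probes. The detection threshold of an array is its lowest raw signal with a detection p under 0.05. For lists, the kept probe with the highest mean stood for a gene, and lists were described by counts and medians. The fit was tested on simulated data.

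The members and lists were chosen with earlier results of these data known. The text names each member, up to 4 called genes per list or otherwise, for lists close to the members, the 2 with the smallest p, Relb, and the 5 genes nearest to Siglech. Irf8, Spib, Tlr7 and Cox6a2 were added after their values were seen. Same-numbered arrays did not deviate together (correlations across probes of 0.30, -0.16 and -0.19), so replicate numbers were not taken as pairs. The labels name separate mice, and precision is limited by the small number of arrays. Alternatives covered background, offset, normalization, the processed values, the filter, the variance model, array weights, 1 probe per gene, a replicate block, chip position and each array left out. Figures were drawn with matplotlib 3.10.9.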

Additional observations from a re-analysis of the deposited data

How the results depend on the processing

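Under all 20 alternatives, 0 member probes were called, and over their 194 recomputed values the lowest limma adjusted p was 0.420. Signs near 0 were unstable, and 31 of the 194 values changed sign. Changes of the filter or the variance model, 1 probe per gene, and chip position as a covariate left the estimates as they were. Values under these alternatives could not change sign, so the 194 overstate how often a change was possible. With cyclic loess Bst2 was -0.0082 and Klk1 -0.089. With median scaling Siglech (ILMN_1239190) was -0.022, Bst2 -0.042 and Klk1 -0.17. With array weights that Siglech probe was -0.043. With the replicate block it was -0.11, Bst2 -0.086, Pld4 0.11 and Ly6d (ILMN_2803921) -0.030. RelB+/- 4 has no same-numbered partner, so the block leaves it out of these estimates. They therefore repeat the estimates made without that array. Without both arrays with heart muscle transcripts, chosen after seeing the data, Pacsin1 (ILMN_3153080) was -0.22 and Ly6d (ILMN_2803920) 0.089. The other causes were not tested. With single arrays left out, the log2 difference ranged from -0.20 to 0.51 for Siglech (ILMN_2928599), -0.18 to 0.18 for ILMN_1239190, -0.069 to 0.29 for Pacsin1 (ILMN_3153080), -0.11 to 0.14 for Bst2, -0.31 to 0.11 for Pld4, -0.13 to 0.059 for Ly6d (ILMN_2803920), -0.030 to 0.13 for ILMN_2803921 and -0.28 to 0.45 for Klk1. Tcf4 (0.022 to 0.17) and the bright Pacsin1 probe (0.14 to 0.46) kept their sign there and under the other alternatives.

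Over all probes, 61 were lower and 8 higher in limma. Counts were 40 lower without background correction, 4 higher with cyclic loess, 23 and 2 with the authors' processed values, 5 higher without a detection filter, 12 and 3 among probes detected on all 7 arrays, 19 and 1 with the replicate block, and 18 and 2 without the heart arrays. Leaving out single arrays gave 30 to 61 lower and 3 to 7 higher. Lower calls were 31 without RelB-/- 1, 30 without RelB+/- 1 and 40 without RelB+/- 2, and higher calls were 3 without RelB-/- 3, RelB+/- 1 or RelB+/- 3. Of 285 list medians, 24 moved by more than the spread between arrays, 5 of them for paralogues, 4 each for conventional dendritic, macrophage and medullary lists, 3 for development and 2 for granulocytes. The median of the members ran from -0.10 without RelB-/- 1 to 0.14 without RelB+/- 3. Signal over background limits Lair1, Klk1 and the dim probes of Siglech and Pacsin1.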

Other observations

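Paralogues of the members were measured for 13 of 22 listed genes. In RelB-/- thymus 0 were called lower or higher by limma, 4 had an unadjusted p under 0.05, and the median log2 difference was -0.21. Cd22 is an inhibitory lectin of B cells related to Siglec-H. It passed the detection threshold on 0 of 3 RelB-/- arrays, against 3 of 4 RelB+/- arrays (limma adjusted p = 0.233). With RelB-/- signals raised to the lowest detected signal of their array, its RelB-/- mean was 1.18-fold lower. That fold leaves out sampling error, so it sets no limit on the difference. Pld1, a phospholipase that makes phosphatidic acid, was 6.11 ± 0.37 in RelB-/- thymus and 6.83 ± 0.19 in RelB+/- thymus (SD, n = 3 and n = 4, limma adjusted p = 0.252). Of 22 listed tissue kallikreins related to Klk1, 19 had a probe and 5 were measured. Of these 5, 0 were called by limma and 1 had an unadjusted p under 0.05, with a median of -0.18. That median had no settled direction, being 0.064 without RelB-/- 2, 0.049 among probes detected on all 7 arrays, 0.0066 with the replicate block and -0.38 without RelB-/- 1. Klk1b26 passed the threshold on 0 of 3 RelB-/- arrays, against 4 of 4 RelB+/- arrays (limma adjusted p = 0.177). Its RelB-/- mean, raised in the same way, was 1.10-fold lower, again leaving out sampling error. Klk1b11 had a log2 difference of -0.21 (SE 0.25, limma adjusted p = 0.755). The measured Klk1b genes are close copies, so their probes may share signal, and the remaining gene, Klk8, is a separate kallikrein (log2 difference 0.084). It is named after its values were seen. Without both arrays with heart muscle transcripts the medians were -0.16 for the paralogues and -0.24 for the kallikreins.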
